A study of Homo sapiens with 12 samples.

Results

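The genes described here are those whose symbol starts with ZNF followed by a digit, a naming group of human zinc finger genes. They were taken from 2 deposited tables of genes that changed with doxycycline in Huh7 cells, a human hepatoma line. Of 1863 genes in the table for cells with inducible G398S A1CF, 30 carried such a symbol, and of 142 genes in the table for cells with inducible wild-type (WT) A1CF, 1 did. That gene, ZNF704, was in both tables, so the set comprised 30 genes of 1939. As 1 row joined ZNF181 and ZNF302, the 30 rows held 31 ZNF symbols, and RefSeq (GRCh38.p14) lists all 31 as protein-coding genes.

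Each construct was carried by 1 clone, and each clone was grown with and without doxycycline, the drug that switches on the construct, giving 4 groups of 3 libraries. The labels are silent on whether replicate libraries stem from different cultures, so p-values here cover only the spread between these libraries, which may be technical. No group had doxycycline without a construct. A1CF, the RNA-binding cofactor that the construct encodes, was 1.70-fold higher with doxycycline in the WT clone and 3.08-fold higher in the G398S clone. Of 19 hepatocyte markers, 7 were in the G398S table (36.8%, beside 10.9% of all genes tested there), among them APOE at 753 FPKM and TF at 227 FPKM without doxycycline. With doxycycline 6 of the 7 were lower and RBP4 was higher, with a median log2 fold change of -0.49, and the part of this shift in the results below was not tested. None of the 19 was in the WT table, which holds only genes that the authors called. Expression is in FPKM, fragments normalised to transcript length and library size, deposited as 1 pooled value per group, so no spread between replicates can be given. The error available is that behind the authors' test, given as q, the p-value adjusted for the false discovery rate, with a threshold of 0.05. The libraries hold RNA of many cells, so fewer cells that express a gene and less RNA per cell cannot be told apart. Positions are on hg19 unless another build is named.

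Most ZNF proteins bind DNA through tandem C2H2 fingers, small folds held by a zinc ion between paired cysteines and histidines. Many also carry a KRAB domain, which recruits the corepressor TRIM28 and, through it, the histone methyltransferase SETDB1, and such proteins silence transposable elements and other targets. The family grew by repeated duplication, which left dense clusters of related genes on chromosome 19. Related members share sequence, so short reads from one may be assigned to another, and how the authors' counting treated such reads is not given in the sources used here.

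Induction of G398S A1CF was accompanied by rises of 19 ZNF genes and falls of 11. The rises included ZNF91, a KRAB protein that represses SVA retrotransposons in human cells, ZNF226, ZNF44 and the transcription factors ZNF148 and ZNF217. The falls were led by ZNF114 and ZNF792. The changes were modest, and 28 of the 30 were less than 2-fold. Most of the table was too, as 234 of its 1863 genes changed 2-fold or more. In this comparison 10.9% of the 17072 genes tested were called and are in the table, 5.06% higher and 5.86% lower. How many ZNF genes were tested is not known. RefSeq lists 517 protein-coding genes under such symbols, a number annotated rather than tested, so the 31 found here cannot be set against the background directly. The other members were not analysed here, and their absence says nothing about their change. Among the called genes, 63.3% of ZNF genes were higher with doxycycline, beside 46.3% of all 1863. The median log2 fold change was 0.34 over the ZNF genes and -0.32 over all genes of the table. Sizes were close, with a median absolute log2 fold change of 0.47 for ZNF genes and 0.49 for all.

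**Figure D1:**
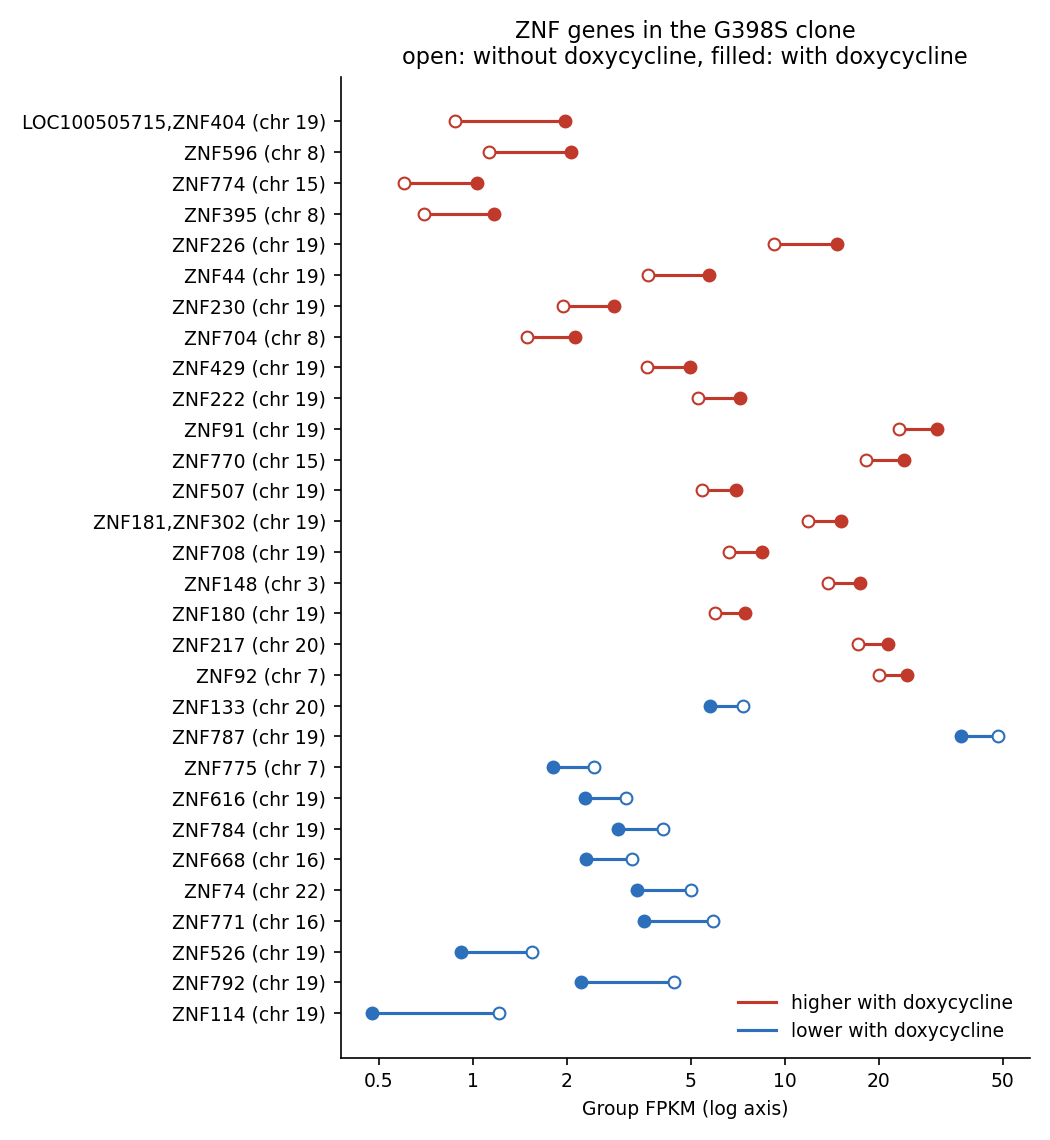
Group FPKM of the 30 ZNF rows in the G398S clone on a log axis, without doxycycline (open points) and with it (filled points), ordered by log2 fold change; each point is the authors' pooled value of 3 libraries. The 19 rows in red were higher with doxycycline and the 11 in blue lower, from ZNF404 at the top (0.874 to 1.98 FPKM) to ZNF114 at the bottom (1.21 to 0.475 FPKM).

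The ZNF genes were expressed at low to moderate levels. Without doxycycline in the G398S clone they ranged from 0.602 FPKM for ZNF774 to 48.4 FPKM for ZNF787, with a median of 4.70 FPKM, against 9.38 FPKM for the other genes of the table. The members with the highest values were ZNF787, ZNF91, ZNF92, ZNF770 and ZNF217. Of these, ZNF787 was the 1 that fell. Of the 16 members under 5 FPKM, 8 rose and 8 fell, while of the 14 at or above 5 FPKM, 11 rose and 3 fell. The other genes of the table showed the opposite order, with 58.2% higher under 5 FPKM and 39.0% at or above it. The 2 ZNF classes also differed in the GC content of their transcripts, treated below. Its median was 46.9% under 5 FPKM and 40.0% at or above it, against 48.4% and 48.7% for the other genes. The classes rest on the uninduced FPKM, which also enters the fold change, and the part of either was not tested.

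The rule took in 17 ZNF genes of chromosome 19 and 13 of other chromosomes. Chromosome 19 held 56.7% of the called ZNF genes and 48.4% of the ZNF genes that RefSeq annotates, against 5.53% of all genes in the table. As a share of the annotated genes, 18 of 250 ZNF symbols on chromosome 19 (7.20%) and 4.87% of the 267 elsewhere were in the G398S table. On chromosome 19, 11 of 17 ZNF genes were higher with doxycycline, and elsewhere 8 of 13 were. The 2 groups were close in median log2 fold change too, at 0.35 and 0.32.

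The other called genes of chromosome 19 mostly fell. Of 86 without a ZNF symbol, 7 were higher with doxycycline and 79 lower, so 8.14% were higher, against 64.7% of the ZNF genes of that chromosome and 47.9% of the 1747 other genes elsewhere. Their median log2 fold change was -0.42. With ZNF genes included, 17.5% of the 103 called genes of chromosome 19 were higher, the lowest share of the 23 chromosomes in the table, below 34.2% for chromosome 17. Of the 18 genes of chromosome 19 that rose, 11 were therefore ZNF genes. The other 7 were IPO5P1, RAB3D, TMEM38A, SLC25A23, ICAM4, NUDT19 and the insulin receptor gene INSR, named after their values were seen. These shares describe 1 comparison of pooled values, and no test of their difference was made. The ZNF genes and the other genes of chromosome 19 also differed in transcript GC content, treated below.

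**Figure D2:**
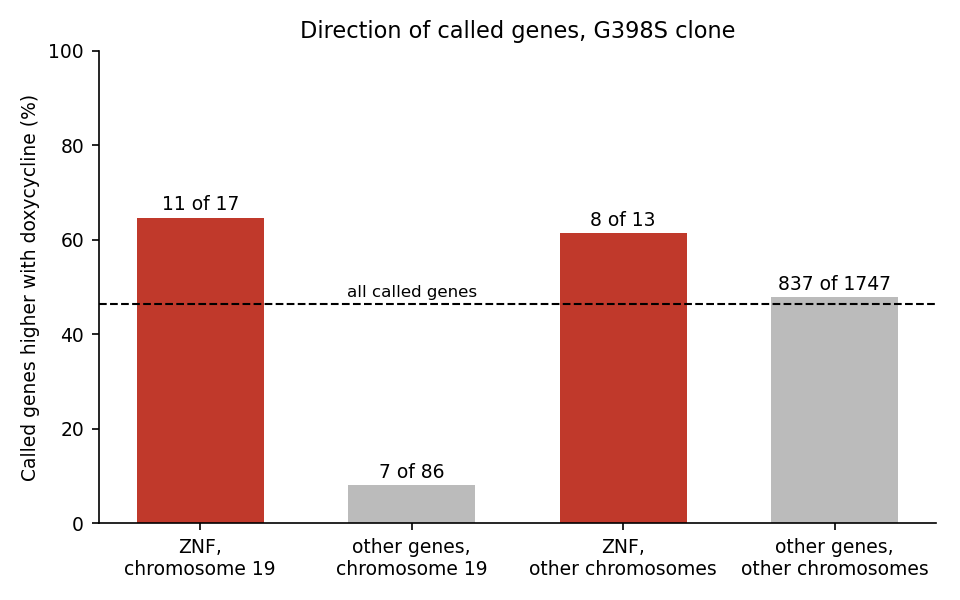
Percent of called genes that were higher with doxycycline in the G398S clone, for ZNF genes (red) and other genes (grey) on chromosome 19 and on the other chromosomes, with counts above the bars. The dashed line marks 46.3%, the share over all called genes; ZNF genes stand at 64.7% and 61.5%, and the other genes of chromosome 19 at 8.14%.

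Within chromosome 19, 5 of the rising genes lay in 1 stretch. ZNF404, ZNF230, ZNF222, ZNF226 and ZNF180 lie within 628 kb, from 44376325 to 45004575, and were the 1 run of 3 or more members with starts no more than 1 Mb apart. All 5 were higher with doxycycline. RefSeq places 19 protein-coding ZNF genes and 0 other protein-coding genes from ZNF404 to ZNF180. Of the 19, 5 were in the G398S table, and the remaining 14 were not analysed here. The 19 are annotated rather than tested genes. For comparison, 7.2% of the annotated ZNF symbols of chromosome 19 and 10.9% of all genes tested were in the table. Besides these 5, none of the 1863 genes analysed lay in this stretch. For genes without a ZNF symbol this was close to given, as RefSeq places 0 other protein-coding ones there. The nearest neighbours among the genes analysed, BCAM, PVRL2, TOMM40 and APOE, started 308 to 404 kb beyond the end of ZNF180. All 4 fell, APOE from 753 to 488 FPKM. The authors' p-values and q-values imply 2114 called genes, of which 1863 were analysed, so genes missing here may have been called.

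Of the 5, ZNF226 had the highest values and rose from 9.21 to 14.7 FPKM. The authors' deposited table gives it a log2 fold change of 0.67 (q = 0.00194). ZNF404 had the largest fold, from 0.874 to 1.98 FPKM. Its change in the authors' deposited table was 1.18 on the log2 scale (q = 0.00349). Its row also names LOC100505715, a noncoding neighbour, so its reads cannot be given to either alone. Adding 1 FPKM to both groups lowered its log2 fold change to 0.67.

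ZNF230 went from 1.95 to 2.83 FPKM, and the authors' deposited table lists a log2 fold change of 0.54 (q = 0.00349). ZNF222, which starts 22.4 kb after ZNF230, went from 5.27 to 7.20 FPKM, with 0.45 (q = 0.0134) in the authors' deposited table. ZNF180, at the far end, went from 5.95 to 7.44 FPKM and had the smallest change of the run, 0.32 (q = 0.0453) in the authors' deposited table. The standard errors implied by the authors' statistics were 0.20 for ZNF180, 0.24 for ZNF230, 0.24 for ZNF222, 0.28 for ZNF226 and 0.54 for ZNF404. These are wider than the deposited p-values imply, which give 0.12, 0.14, 0.14, 0.17 and 0.32 in the same order, and differences in size among the 5 were not tested.

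The promoters of these 5 genes are shown because the genes lie in 1 stretch and rose together. That of ZNF792, a chromosome 19 member that was 1.98-fold lower, is shown beside them. Each runs from 250 bases before to 50 bases after the start site, 5′ to 3′ on the strand of the gene, from RefSeq on GRCh38.p14. Capitals mark CCGGAAG, the core bound by ETS factors, TGACGT, a CREB core, and ATGGCG, a YY1 core, on either strand (CCGGAAG on the opposite strand reads CTTCCGG). No motif overlaps another in these windows. The windows are, in the order printed, chr19:43883915-43884214 (minus strand), chr19:44002707-44003006, chr19:44025129-44025428 and chr19:44164850-44165149 (plus strand), chr19:44500473-44500772 and chr19:34964180-34964479 (minus strand).
ZNF404: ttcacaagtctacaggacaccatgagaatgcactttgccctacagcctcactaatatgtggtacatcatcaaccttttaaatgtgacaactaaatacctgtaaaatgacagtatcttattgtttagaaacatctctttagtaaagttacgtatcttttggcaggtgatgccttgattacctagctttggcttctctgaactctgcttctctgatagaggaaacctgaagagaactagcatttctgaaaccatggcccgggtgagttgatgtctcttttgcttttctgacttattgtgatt
ZNF230: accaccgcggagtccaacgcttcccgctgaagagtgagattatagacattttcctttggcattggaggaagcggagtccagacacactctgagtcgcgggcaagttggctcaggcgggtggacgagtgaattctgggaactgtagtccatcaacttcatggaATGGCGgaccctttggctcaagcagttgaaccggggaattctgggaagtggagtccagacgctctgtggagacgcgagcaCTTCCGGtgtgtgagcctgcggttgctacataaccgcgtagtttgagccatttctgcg
ZNF222: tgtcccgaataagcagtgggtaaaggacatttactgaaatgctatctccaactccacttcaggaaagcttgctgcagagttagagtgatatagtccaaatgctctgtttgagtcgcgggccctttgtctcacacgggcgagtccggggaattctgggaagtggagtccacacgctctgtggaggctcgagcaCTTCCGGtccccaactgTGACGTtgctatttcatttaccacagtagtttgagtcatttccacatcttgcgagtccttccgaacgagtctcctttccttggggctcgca
ZNF226: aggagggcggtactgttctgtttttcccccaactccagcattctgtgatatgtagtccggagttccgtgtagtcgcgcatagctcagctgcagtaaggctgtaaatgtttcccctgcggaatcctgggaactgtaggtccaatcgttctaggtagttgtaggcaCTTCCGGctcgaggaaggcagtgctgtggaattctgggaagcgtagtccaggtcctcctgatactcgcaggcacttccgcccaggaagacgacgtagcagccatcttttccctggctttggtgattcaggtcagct
ZNF180: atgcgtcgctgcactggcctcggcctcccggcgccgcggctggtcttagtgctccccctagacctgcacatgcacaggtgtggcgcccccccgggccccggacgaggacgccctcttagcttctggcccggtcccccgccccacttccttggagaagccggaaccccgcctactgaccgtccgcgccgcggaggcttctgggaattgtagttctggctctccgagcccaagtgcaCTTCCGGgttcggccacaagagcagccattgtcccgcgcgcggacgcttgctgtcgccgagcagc
ZNF792: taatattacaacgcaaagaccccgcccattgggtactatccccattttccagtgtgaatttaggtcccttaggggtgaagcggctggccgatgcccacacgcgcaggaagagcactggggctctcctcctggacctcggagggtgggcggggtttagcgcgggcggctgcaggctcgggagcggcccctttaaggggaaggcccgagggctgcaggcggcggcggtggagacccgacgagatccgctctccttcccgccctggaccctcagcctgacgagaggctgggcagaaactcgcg

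The ETS core was present in 4 of the 5 promoters of the run, on the opposite strand each time, 8, 15, 58 and 86 bases before the start in ZNF230, ZNF180, ZNF222 and ZNF226. ZNF404 held none of the 3 motifs and 2 CpG dinucleotides, while ZNF180 held 31. In ZNF792 none of the motifs was found, with 24 CpG. Other falling members of chromosome 19 varied. ZNF616 and ZNF787 held the ETS core, ZNF787 the YY1 core as well, and ZNF526 and ZNF784 held none of the motifs. Over the 27 members with a promoter in the table, the ETS core was in 12 (44.4%), 9 of 17 that rose and 3 of 10 that fell. ZNF181 and ZNF302, which share 1 row, both held it and were counted singly. The ETS core was in 34.5% of the 563 promoters listed for ZNF genes and in 10.3% of all 35116 promoters of this length. The CREB core was in 2 of 27 member promoters (7.41%), against 10.8% of ZNF promoters and 7.98% of all. By direction it was in 2 of 17 that rose and 0 of 10 that fell. The YY1 core was in 5 of 27 (18.5%), against 16.9% of ZNF promoters and 10.7% of all. By direction that was 4 of 17 and 1 of 10. Differences by direction were not tested. A match describes letters in a window and is not evidence of binding.

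The remaining 6 genes of chromosome 19 that rose lay before the run. ZNF44 (12381411 to 12405802), a KRAB protein gene, rose from 3.65 to 5.71 FPKM, a log2 fold change of 0.65 (q = 0.00104) in the authors' deposited table. ZNF708 and ZNF429 lie within 253 kb of each other, and rose from 6.64 to 8.43 FPKM and from 3.60 to 4.96 FPKM. ZNF91 (23488059 to 23578362) had the highest values of the rising members, 23.3 FPKM without and 30.8 FPKM with doxycycline. The authors' deposited table gives ZNF91 a log2 fold change of 0.40 with a q of 0.00104. ZNF507 went from 5.41 to 6.95 FPKM, and the joint row of ZNF181 and ZNF302 from 11.9 to 15.1 FPKM. No ZNF gene analysed beyond ZNF180 rose, and 4 of the 6 that fell lay beyond it.

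ZNF792 (35446482 to 35455174) starts 278 kb after the ZNF181 and ZNF302 row, which rose, and itself fell from 4.41 to 2.23 FPKM. In the authors' deposited table its log2 fold change was -0.99 (q = 0.00104), with an implied standard error of 0.23 from the statistic and 0.24 from the p-value. ZNF114 (48773347 to 48790865) fell from 1.21 to 0.475 FPKM, the largest fall of the set, and the authors' deposited table gives it -1.35 (q = 0.00104). The value for ZNF114 was -0.58 once 1 FPKM was added to both groups. ZNF526 fell from 1.55 to 0.919 FPKM, a change of -0.75 in the authors' deposited table that became -0.41 after adding 1 FPKM. ZNF616, ZNF784 and ZNF787 had -0.44, -0.47 and -0.40 in the authors' deposited table. ZNF787, the most abundant member, went from 48.4 to 36.8 FPKM (q = 0.00786).

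**Figure D3:**
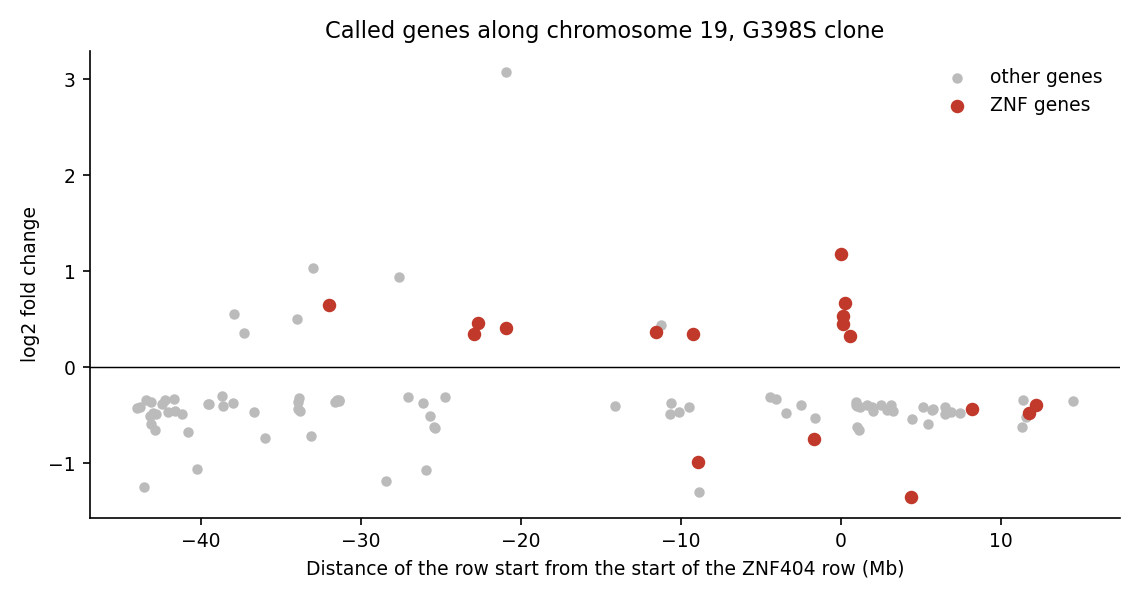
Log2 fold change with against without doxycycline in the G398S clone for the 103 called genes of chromosome 19, by distance in Mb of the row start from the start of the ZNF404 row; red points are the 17 ZNF genes and grey points the other 86. The 5 red points near distance 0 are ZNF404, ZNF230, ZNF222, ZNF226 and ZNF180, all above 0, while 79 of the grey points lie below 0.

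On other chromosomes, the 8 rising genes included all 3 on chromosome 8. ZNF395 and ZNF704 encode related proteins, and ZNF395 rose from 0.696 to 1.17 FPKM. The authors' deposited table gives ZNF395 a log2 fold change of 0.75 (q = 0.00104), which was 0.36 after adding 1 FPKM to both groups. ZNF596 went from 1.12 to 2.06 FPKM (0.87 in the authors' deposited table and 0.53 after adding 1 FPKM). Its row spans 176103 bases, from 21284 to 197386, so other transcripts of this stretch may have been counted with it.

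On chromosome 15, ZNF770 rose from 18.2 to 24.1 FPKM and ZNF774 from 0.602 to 1.03 FPKM. For ZNF774 the authors' deposited table gives a log2 value of 0.78, and it was 0.34 after adding 1 FPKM. ZNF148 (chromosome 3), a factor that binds GC-rich promoters, rose from 13.8 to 17.4 FPKM. ZNF217 (chromosome 20), an oncogene amplified in breast cancer, rose from 17.2 to 21.3 FPKM, and ZNF92 (chromosome 7) from 20.1 to 24.7 FPKM. ZNF92 had the smallest change of all members that rose, 0.30 (q = 0.0446) in the authors' deposited table.

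Of the 5 that fell outside chromosome 19, ZNF771 and ZNF668 lie 653 kb apart on chromosome 16. ZNF771 went from 5.87 to 3.54 FPKM and ZNF668, which has been linked to the DNA damage response, from 3.23 to 2.31 FPKM. Their log2 fold changes were -0.73 and -0.48 in the authors' deposited table. ZNF74, from the stretch of chromosome 22 lost in 22q11.2 deletion syndrome, went from 4.99 to 3.37 FPKM (-0.57, q = 0.00104, in the authors' deposited table). ZNF775 (chromosome 7) and the KRAB gene ZNF133 (chromosome 20) went from 2.45 to 1.81 FPKM and from 7.32 to 5.76 FPKM.

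Members that rose and members that fell differed in base composition. GC content was taken from the longest annotated transcript of each gene in GENCODE 29, protein-coding where there was one, which all 30 members and 1794 of the 1863 rows (96.3%) had. Its median was 39.9% over the ZNF genes that rose and 57.6% over those that fell. Below 45% GC, 17 of 18 ZNF genes rose, and the exception was ZNF616, at 40.5%. The 5 genes of the run from ZNF404 to ZNF180 are among these 18, at 36.0% to 42.4%. From 45% to below 55%, 2 of 6 rose, ZNF774 and ZNF395, and at 55% or above 0 of 6 did. Median annotated transcript length was 4335 nucleotides for the ZNF genes that rose and 2717 nucleotides for those that fell. For the other genes of the table it was 4106.5 and 2845 nucleotides in the same order.

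The same order ran through the other genes of the table. Below 45% GC 70.4% of 641 other genes were higher with doxycycline, from 45% to below 55% it was 52.0% of 554, and at 55% or above it was 13.2% of 569. The other called genes of chromosome 19 had a median of 60.7% GC and none of the 82 with a transcript was below 46.6%. The 11 ZNF genes of that chromosome that rose lay between 36.0% and 43.5%. Below 45%, 11 of its 12 ZNF genes rose. From 45% to below 55%, 0 of 2 ZNF genes and 4 of 14 other genes of chromosome 19 rose. At 55% or above, 0 of 3 ZNF genes and 3 of 68 other genes did. Transcript GC content and length moved with the direction of change in this comparison, and their part in the result was not tested. In the WT table the medians were 44.9% GC for genes that rose and 49.6% for genes that fell.

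**Figure D4:**
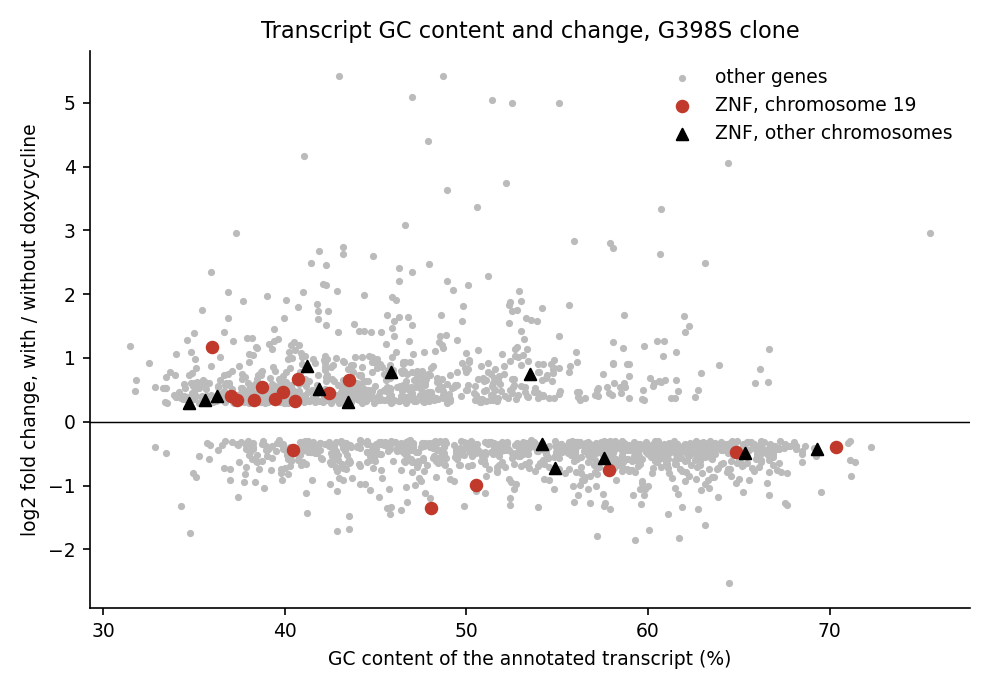
Log2 fold change with against without doxycycline in the G398S clone against the GC content of the annotated transcript, for other called genes (grey), ZNF genes of chromosome 19 (red) and ZNF genes of other chromosomes (black triangles). Of the 18 ZNF genes below 45% GC, 17 lie above 0, and the 6 at 55% or above all lie below 0.

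In the WT clone, where 0.940% of 15109 tested genes were called and are in the table (0.371% higher, 0.569% lower), ZNF704 was the 1 ZNF gene. It lies on chromosome 8, from 81540633 to 81787016 in the WT table, and rose from 2.43 to 4.03 FPKM with doxycycline. In the G398S clone it rose from 1.49 to 2.13 FPKM. The authors' deposited tables give log2 fold changes of 0.73 for WT (q = 0.00699) and 0.52 for G398S (q = 0.00104). After adding 1 FPKM they came to 0.55 and 0.33. The WT change exceeded the G398S change by 0.21, with a 95% interval of -0.49 to 0.90 from the standard errors implied by the authors' statistics and of -0.23 to 0.64 from their p-values, so no difference between the clones was resolved. The 2 tables were normalised separately, so the levels are set side by side only as a description. The 5 genes of chromosome 19 in the WT table carried no ZNF symbol, and all 5 fell. That 29 of the 30 members were in the G398S table alone does not show that they responded differently in the WT clone, since their WT values were not analysed here and the difference was not tested.

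Of 30 symbols listed for KRAB corepressor and heterochromatin genes, 4 were in the G398S table (13.3%, beside 10.9% of all genes tested), 3 higher and 1 lower. Neither TRIM28 nor SETDB1 was among them. The list holds FAM208A and TASOR, names of the same gene, and how many listed genes were tested is not known, so shares of it are approximate. ATF7IP, a partner of SETDB1, went from 4.63 to 6.37 FPKM, and CBX5, a heterochromatin protein, from 12.2 to 15.7 FPKM. DNMT3B, a DNA methyltransferase, went from 7.58 to 13.0 FPKM, while UHRF1, which guides maintenance methylation, fell from 30.7 to 23.5 FPKM. In the WT clone CBX5 was the 1 gene of this list (3.33%, beside 0.940% of all genes tested), and it rose from 15.5 to 26.0 FPKM.

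Of the other C2H2 families searched, those named ZBTB, ZSCAN, KLF, PRDM, SP or IKZF had 13 genes in the G398S table, of which 11 rose and 2 fell. How many genes of these families were tested is not known, so no share can be set beside the 10.9% of all genes tested. Of all 1863 genes in the table, 46.3% rose. KLF15, a regulator of liver metabolism, rose from 2.71 to 6.53 FPKM, and KLF5 from 8.12 to 14.0 FPKM. ZBTB33, which encodes the methyl-CpG binding protein Kaiso, rose by 0.40 on the log2 scale from 9.09 FPKM. ZSCAN2 and ZBTB16 fell, the latter from 2.83 to 1.94 FPKM. Zinc proteins of non-C2H2 type were split, with 5 higher and 4 lower, and the number of these tested is not known either. In the WT clone no gene of the other C2H2 families was in the table, and ZC3H12A was the 1 zinc protein of non-C2H2 type, falling from 6.44 to 1.83 FPKM.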

How the data were processed

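RNA of 12 libraries from Huh7 cells, in 4 groups of 3, was made into libraries with a stranded total RNA kit that depletes ribosomal and globin RNA, per the labels' protocols. Build hg19 and the tools STAR 2.5.0b, bcl2fastq 2.9.1, Cuffdiff (no version) and Cufflinks 2.2.1 are listed in the submitters' processing notes. Their settings, use of strand included, are not stated there. Per the file headers, the deposited tables give 1 pooled FPKM per group, a log2 fold change (the log2 ratio of these FPKM), a test statistic (a score), a p-value and a q-value, for genes marked significant. Group names in 1 table carry the prefix M, read as the mutant (G398S) clone. The other was read as WT because of its deposited name. Library depths are unknown.

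The members and lists were chosen with earlier results of these data known. Rows were chosen by symbol, and 1 was added to each start. The number tested was recovered as the smallest for which every p-value, q-value pair gives a whole rank, within 1.2 times the rounding error of q. It was 15109 for WT and 17072 for G398S. The ranks imply 172 and 2114 called genes, of which 142 and 1863 were analysed. Implied standard errors are the log2 fold change divided by the statistic or, where named, by the normal quantile of the deposited p-value. The normal p of that statistic was larger than the deposited p by a median factor of 50.6 over the members. No test was run on gene sets or positions. Named genes were to be all WT members, the 10 largest rises and falls, the 5 highest values and runs of 3 or more, and the few left were named as well. Work was done in Python 3.11.15 with pandas 2.3.3 and scipy 1.17.1.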

Additional observations from a re-analysis of the deposited data

How the results depend on the processing

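At a q of 0.01, 8 ZNF genes were higher and 6 lower in the G398S clone. Of these, 5 were higher and 4 lower on chromosome 19, and 3 higher and 2 lower elsewhere. With changes of 0.5 or more on the log2 scale in either direction, 8 were higher and 5 lower, 4 higher and 3 lower on chromosome 19, and 4 higher and 2 lower elsewhere, with a median log2 fold change of 0.54. Fewer genes qualify under both by construction. Counts under a filter of 1 FPKM, single symbol rows or plain symbols stayed within 1.5 times, and the median lay between 0.31 and 0.34 with 1 or 0.1 FPKM added. The next larger number tested, 34144, would bring the called share of G398S to 5.46%, and 30218 that of WT to 0.47%. Leaving out replicates could not be run on pooled values. No paired analysis was possible because each group was deposited as 1 pooled value.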
